A study of Arabidopsis thaliana with 6 samples.

Results

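The genes described are those through which an Arabidopsis seed perceives gibberellin: the receptors GID1A, GID1B and GID1C, the F-box genes SLY1 and SNE, and the 5 DELLA genes GAI, RGA, RGL1, RGL2 and RGL3. They were picked out by locus identifier, and all 10 had a row among the 32884 of each table. The samples were seeds of Arabidopsis thaliana in the Col-0 accession, with 3 wild-type libraries and 3 of hda15-1, which carries a mutant allele of HDA15, a gene for a histone deacetylase. Both genotypes had the same treatment: 1 h in water, 5 min of far-red light at 3.82 µmol per square metre per second, then 12 h of darkness at 22 °C. Plants had grown in long days of 16 h light at 22 °C, and seeds were dried for about 1 month before use. No other light treatment or time is among the 6 libraries, so each level below belongs to dark-held seeds after far-red light. The comparison asks whether the gibberellin sensing genes differ in seeds of the HDA15 mutant; HDA15 is the gene the series title joins with the factor PIF1 in a module that represses germination in darkness.

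Gibberellin is the hormone that promotes germination. A GID1 receptor that has bound gibberellin takes hold of a DELLA protein, and the F-box protein SLY1 then brings the DELLA to an SCF ubiquitin ligase for destruction. DELLA proteins belong to the GRAS family of transcriptional regulators and restrain germination and growth while they last, so the pathway works by removing repressors, and much of its control is at the protein, which RNA does not show. In imbibed seeds RGL2 is the DELLA best known for holding back germination, and PIF1 is known to bind the promoters of GAI and RGA in the dark.

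The 10 genes are relatives within each class, so it matters whether short reads can tell them apart. Over aligned coding bases GAI and RGA were 82.4% identical, RGL2 and RGL3 77.4%, and the other DELLA pairs 67.2% to 70.5%. GID1A and GID1C were 83.8% identical, GID1B was 70.5% identical to GID1A and 71.4% to GID1C, and SLY1 and SNE were 61.5% identical. The stretch below is the start of the region that names the DELLA proteins, which the receptor binds, read from RefSeq TAIR10.1 as 60 coding bases in the direction of each gene. Capitals mark bases that are unlike those of GAI at the same place.
GAI: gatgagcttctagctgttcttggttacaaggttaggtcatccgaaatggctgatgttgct
RGA: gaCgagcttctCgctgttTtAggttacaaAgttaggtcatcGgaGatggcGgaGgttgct
RGL1: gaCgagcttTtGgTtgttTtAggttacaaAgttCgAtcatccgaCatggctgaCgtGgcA
RGL2: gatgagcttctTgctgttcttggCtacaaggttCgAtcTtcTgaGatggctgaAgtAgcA
RGL3: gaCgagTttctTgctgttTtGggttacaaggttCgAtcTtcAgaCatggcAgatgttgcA
These stretches lie on chromosome 1 from 5149495 to 5149554 for GAI, on chromosome 2 from 257156 to 257215 for RGA, on chromosome 1 from 24748420 to 24748479 for RGL1, on chromosome 3 from 821091 to 821150 for RGL2 and on chromosome 5 from 5765729 to 5765788 for RGL3. They differ from GAI at 9 bases in RGA, 10 in RGL2, 12 in RGL3 and 13 in RGL1, yet 19 of the 20 codons in RGA and RGL2, and 18 of the 20 in RGL1 and RGL3, stand for the same residue as in GAI. Even in this conserved part, then, the messages are distinct. The longest exact run shared by any pair within a class was 35 bases, between GID1A and GID1C, followed by 30 between GAI and RGA. No run of 36 bases of any of the 10 messages occurred in an annotated transcript of another gene. The read length is not given in the sources used here, and reads with mismatches could still be shared. None of the 10 loci overlaps another annotated gene on either strand.

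The libraries were checked before the genes were compared. HDA15, the gene mutated in hda15-1, was at 16.1, 12.97 and 14.8 FPKM across wild type, against 0.338, 0.651 and 0.417 FPKM across hda15-1. In log2(FPKM + 1) the fall was 3.41 ± 0.18 (SE; adjusted p = 3.79e-04, limma), which the added 1 makes smaller than the fall in FPKM itself. FPKM counts fragments per kilobase of transcript, scaled to the mapped total of a library. Read totals are unknown, and the sums of FPKM over a library ran from 879239 to 1159516. Of 11 seed genes for storage proteins, oleosins and late embryogenesis proteins, 10 were above 1 FPKM in every library, and these 10 summed to 48080 to 76680 FPKM across wild type and 50730 to 87140 FPKM across hda15-1. The remaining gene, CRC, was listed at 0 in wild type 3 and hda15-1 2. SESA4, a storage albumin gene, was at 1297, 1170 and 1326 FPKM across wild type, against 1311, 1978 and 2439 FPKM across hda15-1, and CRU2, a cruciferin gene, at 2108 ± 332 and 2697 ± 578 FPKM (SD, n = 3 each). Of 4 endosperm genes, 3 were above 1 FPKM in every library and ZOU was listed at 0, with sums of 6918 to 11160 and 7575 to 11460 FPKM. Nearly all of each sum came from EPR1, at 9045 ± 2164 FPKM across wild type and 9071 ± 2025 FPKM across hda15-1 (SD, n = 3 each). MAN7, a mannanase gene, was at 16.0 ± 3.94 and 22.3 ± 7.89 FPKM, and MFT, which acts in seed dormancy and germination, at 251 ± 55.9 and 242 ± 62.0 FPKM (SD, n = 3 each). The 8 leaf genes, for Rubisco, Rubisco activase and chlorophyll-binding proteins, summed to 374 to 488 and 474 to 645 FPKM, nearly all of it from RBCS1A, at 451, 350 and 406 FPKM across wild type, against 441, 551 and 615 FPKM across hda15-1; RBCS3B was at 1.95 ± 1.52 and 3.11 ± 0.525 FPKM (SD, n = 3 each). Whole seeds mix embryo, endosperm and seed coat, so that fewer cells of a type and less RNA per cell cannot be told apart.

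The pathway was led by its repressors. In mean level over the 6 libraries the order was GAI at 258 FPKM, GID1A at 136, RGA at 120, RGL2 at 91.3, RGL3 at 49.1, SLY1 at 39.1, GID1C at 21.0, RGL1 at 0.303, SNE at 0.219 and GID1B at 0.212 FPKM. Each class thus had 1 or more members in use and 1 that was close to silent: GID1B among the receptors, SNE among the F-box genes and RGL1 among the DELLAs. The ranges of neighbours in this order overlapped except between RGL2 and RGL3, between SLY1 and GID1C, and between GID1C and RGL1. GAI was above GID1A in 6 of 6 libraries although their ranges met, whereas GID1A was above RGA in 4 of 6 and RGL3 above SLY1 in 4 of 6, so the order within these last pairs was not settled. The ranges of RGL1, SNE and GID1B over the 6 libraries overlapped, with RGL1 below SNE in all 3 wild-type libraries and above it in all 3 of hda15-1.

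**Figure D1:**
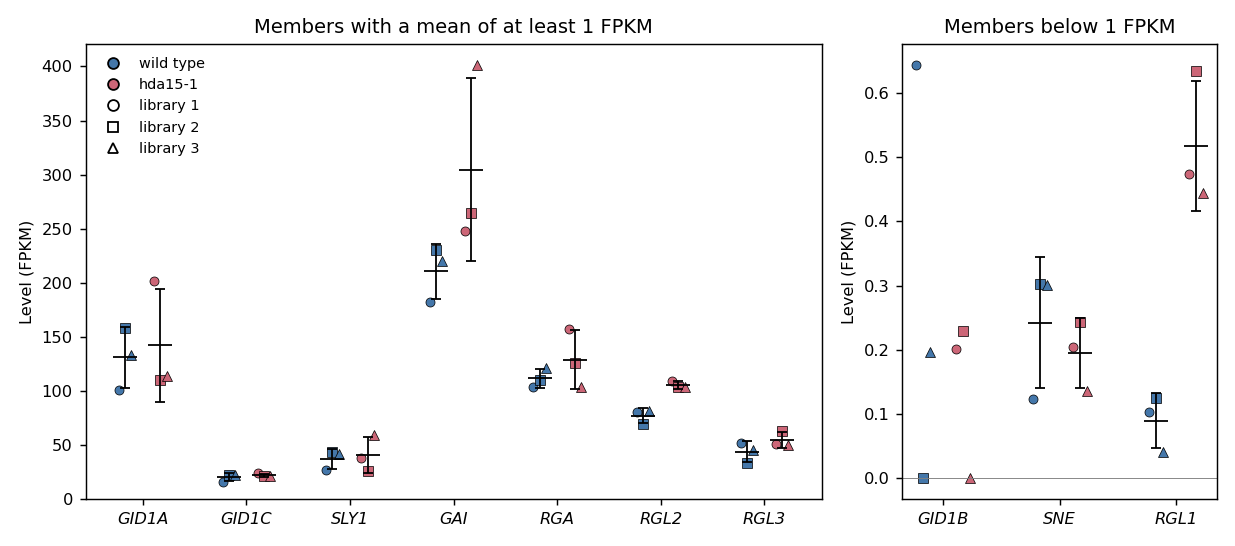
Level of each gene in FPKM (y axis) in every library, with the 7 genes of at least 1 FPKM on the left and the 3 below on the right, on separate linear axes. Symbols are libraries 1 to 3 of wild type (blue) and hda15-1 (red), and bars give mean ± SD except for GID1B, which is listed at 0 in a library of each genotype; the groups are apart for GAI, RGL2 and RGL1.

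None of the genes passed the test between genotypes. Of the 10, 7 had a mean of at least 1 FPKM and entered the test of 15045 genes with limma on log2(FPKM + 1), and 0 of the 7 passed an adjusted p of 0.05, where 0.219% of all genes tested did. Without adjustment, 1 of the 7 had a p under 0.05, RGL2, as did 4.28% of all genes tested. The log2 fold change, hda15-1 minus wild type, was above 0 for all 7 genes tested, as it was for 54.4% of all genes. For GID1A, GID1C, SLY1 and RGA that sign turned in other settings. The median of the 7 was 0.19, beside 0.02 for all genes tested.

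**Figure D2:**
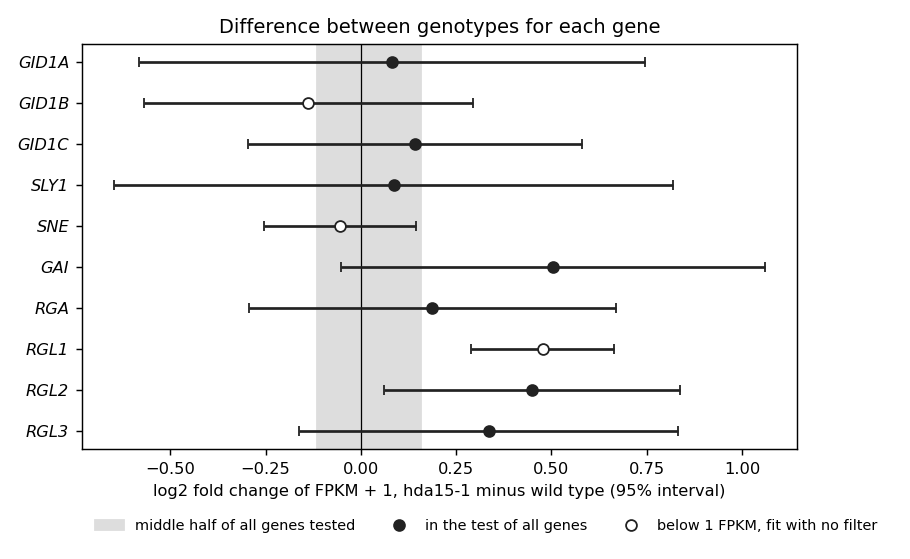
Log2 fold change of FPKM + 1, hda15-1 minus wild type (x axis), for each of the 10 genes with its 95% interval from limma; the grey band holds the middle 50% of all genes tested. Open circles are the 3 genes below 1 FPKM, taken from a fit with no filter; the intervals of RGL1 and RGL2 lie above 0 before adjustment, and neither passed after it.

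Among the receptors, GID1A supplied most of the message. GID1A (AT3G05120), on chromosome 3 from 1430363 to 1432844 (plus strand), stood at 101, 158 and 133 FPKM across wild type, against 202, 110 and 114 FPKM across hda15-1. The library hda15-1 1 was the highest and the other hda15-1 libraries lay inside the wild-type range. In log2 fold change the difference was 0.08 ± 0.29 (SE; adjusted p = 0.9999, limma), with a 95% interval from -0.58 to 0.75, which is 0.668 to 1.68 times the wild-type level on the FPKM + 1 scale. Without hda15-1 1 it was -0.20, without wild type 1 it was -0.09, and without both it was -0.37. When libraries were scaled to an equal sum it was -0.017, and after quantile normalization -0.021. The data therefore give GID1A no direction.

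GID1C (AT5G27320), on chromosome 5 from 9628990 to 9631291 (plus strand), was the steadiest of the genes in relative terms. It was at 15.7, 22.0 and 22.3 FPKM across wild type, against 23.6, 20.9 and 21.3 FPKM across hda15-1, so that wild type 1 alone stood lower. The log2 fold change was 0.14 ± 0.19 (SE; adjusted p = 0.9999, limma; 95% interval -0.30 to 0.58), and it was -0.016 without wild type 1 and -0.068 without both libraries numbered 1. Its coefficient of variation over the 6 libraries was 13.2%, against 27.8% for GID1A. Within genotypes it was 18.8% in wild type and 6.68% in hda15-1, where RGL2 had 8.56% and 3.20%. GID1B (AT3G63010), on chromosome 3 from 23289243 to 23291486, was listed at 0.644, 0 and 0.196 FPKM across wild type, against 0.202, 0.230 and 0 FPKM across hda15-1. A read in a transcript of its length was worth about 0.0411 to 0.0553 FPKM, so its highest value stands for an estimated 12.6 reads. Its groups overlapped, with an adjusted p of 0.9999 in limma with no filter. GID1A made up 84.0% to 89.4% of the summed receptor level and GID1C 10.5% to 15.9%, and the ranges of both genotypes overlapped for each.

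Of the F-box genes, SLY1 was expressed and SNE, its close relative, was near 0. SLY1 (AT4G24210), on chromosome 4 from 12563279 to 12564482 (plus strand), stood at 26.8, 43.5 and 41.4 FPKM across wild type, against 37.6, 26.0 and 59.1 FPKM across hda15-1. The lowest and the highest value were both in hda15-1, and its coefficient of variation there was 41.1%, against 24.4% in wild type. The log2 fold change was 0.09 ± 0.32 (SE; adjusted p = 0.9999, limma; 95% interval -0.65 to 0.82), the widest interval of the 10 genes, and it was -0.21 without hda15-1 3, -0.13 without wild type 1, -0.11 without both libraries numbered 1 and -0.011 with the libraries scaled to the same sum. SNE (AT5G48170), on chromosome 5 from 19532270 to 19533390 (minus strand), was at 0.124, 0.303 and 0.3002 FPKM across wild type, against 0.205, 0.243 and 0.136 FPKM across hda15-1. A read was worth about 0.0747 to 0.101 FPKM in a transcript of its length, and the groups overlapped.

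None of the DELLA genes passed the test. Log2 fold changes of the 4 tested were 0.19 to 0.50, beside 0.08 to 0.14 for the 3 receptor and F-box genes tested, and this order did not hold in every fit that leaves out 1 library: without hda15-1 2, SLY1 was at 0.36 and RGA at 0.19. The median log2 fold change was 0.39 for the 4 DELLA genes, 0.41 for the 4 leaf genes tested, 0.20 for the 11 seed genes and 0.011 for the 3 endosperm genes tested, with none past the threshold. The part of these markers in the DELLA values was not tested. GAI (AT1G14920), on chromosome 1 from 5148982 to 5151415 (plus strand), stood at 182, 230 and 220 FPKM across wild type, against 248, 265 and 401 FPKM across hda15-1. Every hda15-1 library was above every wild-type library in FPKM as deposited, with hda15-1 3 far above the others. This separation depends on how libraries are scaled. FPKM summed to 912906 in wild type 2 and 1067711 in hda15-1 2, and relative to these sums GAI was higher in wild type 2. The mean of wild type was 211 ± 25.4 FPKM and that of hda15-1 305 ± 84.3 FPKM (SD, n = 3 each), a difference of 0.50 ± 0.24 (SE) in log2 fold change (adjusted p = 0.9999, limma; 95% interval -0.05 to 1.06). With libraries scaled to the same sum it was 0.40, and without hda15-1 3 it was 0.29. SLY1 was also at its highest in that library and RGA at its lowest; whether these values share a source was not tested.

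RGL2 (AT3G03450), on chromosome 3 from 819337 to 821652 (minus strand), had tight groups that lay apart. It was at 80.7, 69.5 and 81.2 FPKM across wild type, against 109, 104 and 103 FPKM across hda15-1. The lowest hda15-1 library was thus above the highest wild-type library, and the coefficient of variation was 8.56% in wild type and 3.20% in hda15-1. In log2 fold change the difference was 0.45 ± 0.17 (SE), with a 95% interval from 0.06 to 0.84, that is 1.04 to 1.79 times the wild-type level on the FPKM + 1 scale, and an unadjusted p of 0.0284. Over all genes tested the adjusted p was 0.993 in limma, and in the alternatives it lay no lower than 0.306, which was without the libraries numbered 1. The fold change stayed between 0.35 and 0.49 in those alternatives. GAI and RGL2 were the 2 of 7 tested genes whose hda15-1 libraries all lay above wild type, as held for 5.78% of all genes tested, while 3.43% had all hda15-1 libraries below.

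RGA (AT2G01570), on chromosome 2 from 255247 to 257568 (minus strand), was at 103, 110 and 121 FPKM across wild type, against 157, 126 and 103 FPKM across hda15-1. Its hda15-1 values ran from just below the wild-type minimum to well above the wild-type maximum, so the groups overlapped. The log2 fold change was 0.19 ± 0.21 (SE; adjusted p = 0.9999, limma; 95% interval -0.29 to 0.67), and -0.019 without the libraries numbered 1. It was 0.034 without hda15-1 1 and 0.34 without hda15-1 3. RGL3 (AT5G17490), on chromosome 5 from 5763989 to 5766246 (minus strand), was at 52.1, 33.2 and 45.5 FPKM across wild type, against 50.9, 62.8 and 50.1 FPKM across hda15-1. Wild type 1 lay within the hda15-1 range, and the log2 fold change was 0.34 ± 0.22 (SE; adjusted p = 0.9999, limma; 95% interval -0.16 to 0.83), and 0.16 without wild type 2.

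RGL1 (AT1G66350), on chromosome 1 from 24748105 to 24750186 (plus strand), was the DELLA gene with the largest relative difference and by far the lowest level. It was at 0.102, 0.125 and 0.0414 FPKM across wild type, against 0.474, 0.633 and 0.444 FPKM across hda15-1. The groups were well apart, as held in this direction for 5.96% of the genes with a mean above 0 and below 1 FPKM. The ratio of the means was 5.78, from a wild-type mean of 0.0895 ± 0.0431 FPKM and an hda15-1 mean of 0.517 ± 0.102 FPKM (SD, n = 3 each). A read in a transcript of its length was worth about 0.0402 to 0.0542 FPKM, which puts the wild-type values near 2.05, 3.10 and 0.999 reads and the hda15-1 values near 11.2, 13.1 and 8.19 reads. These are estimates from the smallest steps between values, not counts.

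With no filter, the log2 fold change of RGL1 was 0.48 ± 0.08 (SE), with an unadjusted p of 5.52e-04 and an adjusted p of 0.171 in limma over 21626 genes, of which 0.12% passed. The added 1 in log2(FPKM + 1) hides most of the change of such a low gene. With 0.1 in its place the log2 fold change was 1.72 and the adjusted p 0.226, and over all alternatives the adjusted p lay between 0.158 and 0.604. The exact two-sided permutation test of the 6 values gave p = 0.1, the smallest that 3 libraries against 3 allow. RGL1 thus did not pass, and at either level it added little to the DELLA message, with 0.00886% to 0.0281% of the summed DELLA level in wild type and 0.0674% to 0.114% in hda15-1.

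As a class, the 5 DELLA genes summed to 418, 443 and 467 FPKM across wild type and to 566, 558 and 658 FPKM across hda15-1. The sums of the genotypes did not overlap; no test is given for a sum over chosen genes. GAI gave 43.5% to 52.0% of this sum in wild type and 43.8% to 61.0% in hda15-1, RGA 24.7% to 25.9% and 15.7% to 27.8%, RGL2 15.7% to 19.3% in either genotype and RGL3 7.48% to 12.5% and 7.61% to 11.3%. The ranges of these 4 shares overlapped between genotypes, with GAI at its highest and RGA at its lowest share in hda15-1 3. DELLA message was in excess of receptor message in every library, by 3.56, 2.46 and 3.003 times in wild type and 2.51, 4.24 and 4.88 times in hda15-1. The ratio overlapped between genotypes. DELLA message exceeded F-box message 10.13 to 15.5 times in wild type and 11.1 to 21.3 times in hda15-1. Ratios of message say nothing of the ratio of the proteins.

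**Figure D3:**
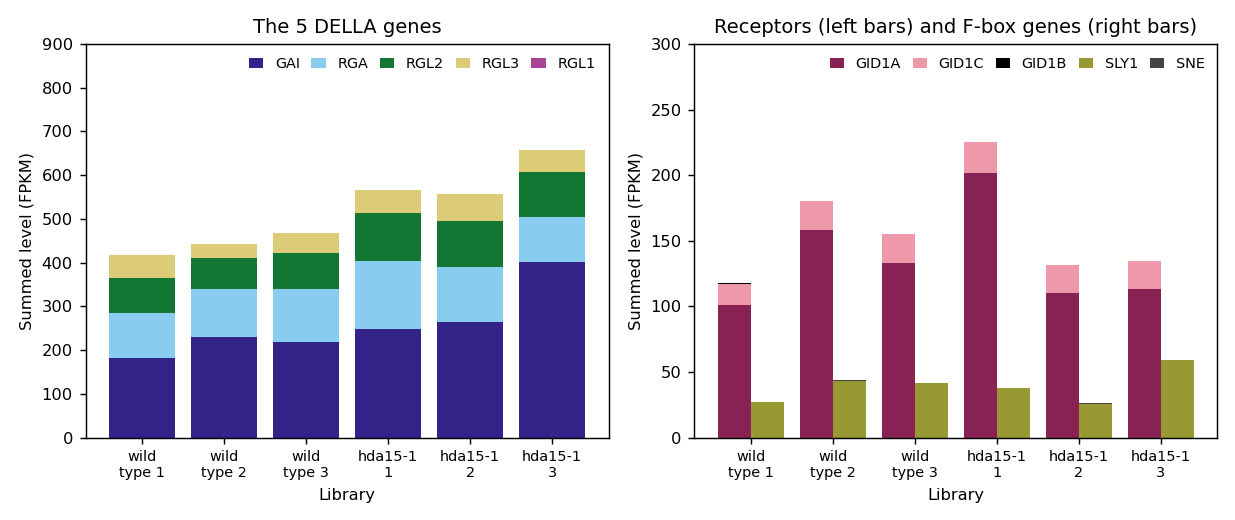
Summed FPKM (y axis) in each library (x axis), stacked by gene, for the DELLA genes (left panel) and for the receptors and F-box genes (right panel, left and right bars). The DELLA stacks are 418 to 467 FPKM high for wild type and 558 to 658 FPKM for hda15-1, while receptor and F-box stacks overlap between genotypes; RGL1, GID1B and SNE are too low to see.

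The libraries numbered 1 gave a different picture from those numbered 2 and 3 for some genes. Between the libraries numbered 1 the log2 difference, hda15-1 minus wild type, was 0.99 for GID1A, 0.56 for GID1C, 0.47 for SLY1, 0.60 for RGA and -0.03 for RGL3. Between the mean of those numbered 2 and 3 it was -0.37, -0.068, -0.11, -0.019 and 0.52. The low genes SNE, at 0.10 and -0.13, and GID1B, at -0.45 and 0.020, also turned. For GAI it was 0.44 and 0.53, for RGL2 0.43 and 0.46, and for RGL1 0.42 and 0.51. GAI, RGL2 and RGL1 were thus higher in hda15-1 by a like amount in both sets, which for genes whose groups do not overlap is fixed in sign, whereas the other 7 genes differed in sign between the sets.

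The genes whose values followed the members most closely over the 6 libraries were sought among 10472 genes that reached a mean of 5 FPKM. The highest Pearson correlations of log2(FPKM + 1) were 0.991 with SRC2 (AT1G09070) for RGL2, 0.995 with AT5G49400 for GAI, 0.997 with TK1b (AT5G23070) for RGA and 0.993 with AT2G43770 for RGL3. They were 0.997 with AT2G04865 for GID1A, 0.990 with AT1G60420 for GID1C and 0.992 with AT3G28900 for SLY1. With 6 libraries such values are common, as 88 to 348 genes reached a correlation above 0.9 with each of these members. None of these similar genes was itself a member. None passed the test (adjusted p = 0.9999 for each, limma), which adds no result, since each was picked for following a member that did not pass.

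Within the GRAS family, DELLA genes stood high in these seeds. Of 32 GRAS genes examined, GAI was the first in mean level, RGA the second, RGL2 the fourth and RGL3 the ninth, with RGL1 at place 29. SCL21, at 97.4 FPKM, was between RGA and RGL2, and SCL3, a GRAS gene that promotes the gibberellin response, was at 76.5 FPKM. Of the 27 GRAS genes other than DELLAs, 21 were tested and 0 passed in limma, with a median log2 fold change of 0.017 beside 0.39 for the 4 DELLA genes tested and 0.02 for all genes. Without adjustment 1 of the 21 had a p under 0.05, beside 4.28% of all genes tested. This was HAM4, of the HAIRY MERISTEM group, at 1.86, 1.14 and 2.55 FPKM across wild type, against 0.998, 1.03 and 0.499 FPKM across hda15-1 (adjusted p = 0.9999, limma). PAT1, a gene of phytochrome A signalling and the next by p, was at 18.2, 15.01 and 15.6 FPKM across wild type, against 17.4, 23.5 and 28.1 FPKM across hda15-1, with a log2 fold change of 0.46 (adjusted p = 0.9999, limma).

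Other parts of the pathway were followed through 8 lists with 75 genes, of which 44 were tested. GASA6 alone passed, higher in hda15-1, and 0 passed as lower. At an unadjusted p under 0.05 there were 2 of the 44, GASA6 and SPT, beside 4.28% of all genes tested. The median log2 fold change of the 44 was 0.06. GASA6 (AT1G74670), a small peptide gene that gibberellin induces, was at 14.7, 4.55 and 2.70 FPKM across wild type, against 116, 108 and 163 FPKM across hda15-1, which is 4.22 ± 0.48 (SE) in log2 fold change (adjusted p = 0.0177, limma). It was among 4 GASA genes tested of 14, and passed in 3 of the 6 fits that leave out 1 library; it lost the call without wild type 2, hda15-1 2 or hda15-1 3, with adjusted p-values of 0.0881 to 0.0974 in limma.

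**Figure D4:**
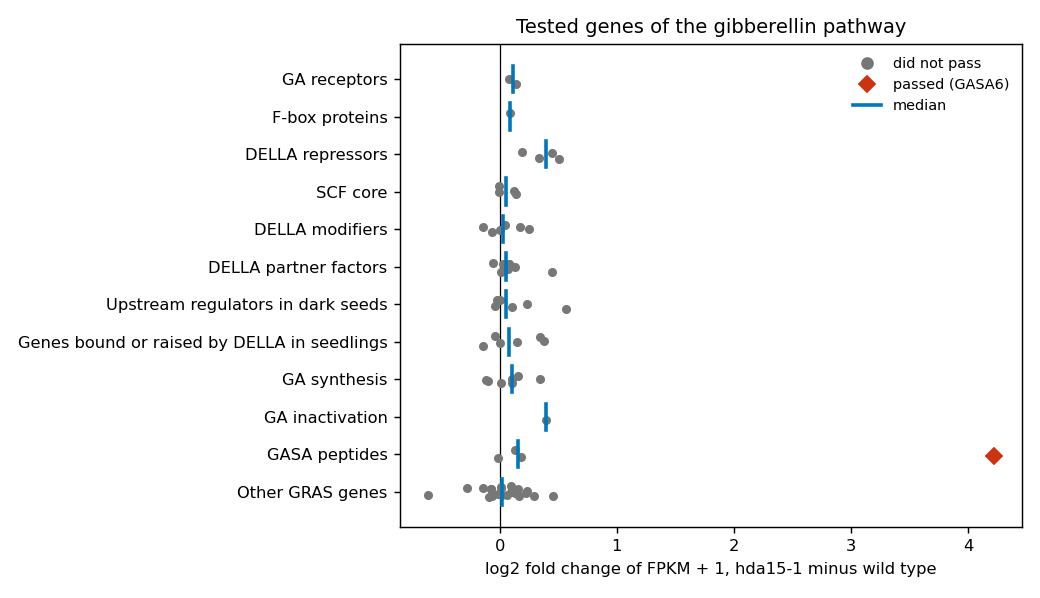
Log2 fold change of FPKM + 1, hda15-1 minus wild type (x axis), for every tested gene of each list of gibberellin genes (rows), with the median of the list as a blue bar. GASA6, at 4.22, is the only gene that passed; the tested DELLA genes lie between 0.19 and 0.50.

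Among the genes that act on DELLA proteins, none passed. The SCF core, which joins SLY1 to the ubiquitin machinery, had 4 of 4 genes tested and a median log2 fold change of 0.06. ASK1, its adaptor, was at 850, 687 and 641 FPKM across wild type, against 576, 801 and 1041 FPKM across hda15-1, and RBX1, its RING subunit, at 80.6, 80.7 and 102 and at 98.3, 91.9 and 98.6 FPKM. Of 6 genes whose products modify DELLA proteins the median was 0.02. SEC, which adds a sugar to DELLA proteins, had a mean of 39.4 ± 2.59 FPKM across wild type and 35.7 ± 4.304 FPKM across hda15-1 (SD, n = 3 each), and TOPP4, a phosphatase, at 9.24 ± 2.53 and 11.1 ± 2.88 FPKM. Of 13 genes for factors that bind DELLA proteins, 11 were tested, with a median of 0.05. PIF3, a light-signalling factor, was at 2.05, 3.10 and 2.88 FPKM across wild type, against 3.21, 4.93 and 3.92 FPKM across hda15-1. Its groups were apart, the only such case among the 11, as held in this direction for 5.78% of all genes tested. Over the 8 lists this held for 5 of the 44 genes tested: PIF3, GASA6, SPT, BOI and GA2OX2. PKL, a chromatin remodeller, was at 15.7 ± 0.396 and 17.4 ± 2.37 FPKM.

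Upstream regulators known from dark seeds, 6 tested of 7, had a median of 0.05, and none passed. SPT, a repressor of germination, was at 1.71, 1.85 and 1.43 FPKM across wild type, against 2.66, 2.80 and 3.34 FPKM across hda15-1 (adjusted p = 0.826, limma), and DAG1, another repressor, at 2.41 ± 0.432 and 2.99 ± 0.418 FPKM (SD, n = 3 each). Of 10 genes known to be bound or raised by DELLA proteins in seedlings, 6 were tested, with a median of 0.08 and none past the threshold. BOI, a RING protein gene of this list, was at 67.9, 50.4 and 63.3 FPKM across wild type, against 72.7, 86.4 and 76.5 FPKM across hda15-1, and SCL3 at 80.0 ± 7.59 and 73.0 ± 13.2 FPKM.

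Of 14 gibberellin synthesis genes, 7 were tested and none passed, with a median of 0.10. GA20OX2, of a late step, was higher in the libraries numbered 1 than in the others of either genotype, at 32.0, 9.15 and 8.98 FPKM across wild type, against 34.5, 12.6 and 13.2 FPKM across hda15-1. KAO2, an ent-kaurenoic acid oxidase gene, was at 24.9 ± 4.68 and 27.7 ± 3.30 FPKM (SD, n = 3 each). GA3OX1, which makes active gibberellin and lies in both this and the DELLA-bound list, was below the minimum mean, at 0.227, 0.178 and 0.0596 FPKM across wild type, against 1.95, 1.85 and 0.906 FPKM across hda15-1. GA3OX2 was listed at 0 throughout wild type, against 0.640, 0.928 and 0.546 FPKM across hda15-1. Both were named after their values were seen, because hda15-1 lay above wild type in every library, so their separation adds no result. The same separation held for 5.96% of the genes with a mean above 0 and below 1 FPKM. Of 9 genes that inactivate gibberellin, 1 was tested, GA2OX2, at 21.4, 18.4 and 21.1 FPKM across wild type, against 33.3, 24.4 and 23.9 FPKM across hda15-1 (adjusted p = 0.9999, limma).

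Because the series pairs HDA15 with PIF1, whose family binds the G-box, CACGTG, the 1000 bases before the annotated start of each gene were searched for it; the motif reads the same on both strands. It was found in 1 of the 10 genes, GAI, at 1 place, beside 14.8% of 27443 protein-coding genes with such a window. The site begins 911 bases before the start of GAI, within chromosome 1 from 5148059 to 5148088 on the plus strand in TAIR10.1, with the motif in capitals.
GAI: ggacccgttttaCACGTGgacccaatcaca
A match is a description of the sequence, and the search says nothing about binding at the other genes. Groups did not overlap in FPKM for GAI, which holds this motif, and for RGL2 and RGL1, which lack it in this window. Such a separation, higher in hda15-1, held for 5.78% of all genes tested. It held for 5.96% of genes with a mean above 0 and below 1 FPKM. Whether the motif bears on the separation was not tested.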

How the data were processed

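RNA from whole seeds was sequenced in 6 libraries, 3 per genotype. Each library has its own table of FPKM as the authors deposited it, per the file headers. Bowtie 0.12.2, Cufflinks, Cuffdiff and TAIR10 are named, without settings, per the submitters' processing notes. Annotation version, read length and strandedness: not given in the sources used here. FPKM depends on the length assigned to a transcript, depth is known only as an estimate, and an exact 0 can be a failed estimate, so genes listed at 0 are given by library.

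The genotypes were compared in limma 3.58.1 (R 4.3.3), as log2(FPKM + 1) with an empirical Bayes trend and genotype as the only term. The 15045 genes whose mean reached 1 FPKM were tested, two-sided, with Benjamini-Hochberg adjustment over all of them and a threshold of 0.05. Fold changes on this scale understate the change of low genes. Genes below the minimum mean were read from the same fit with no filter. Separate seed lots are not stated in the labels, so the p-values cover only the spread between these libraries, which may be technical.

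The value of 1 read was estimated from the smallest steps between FPKM values and the lengths of genes with 1 annotated transcript. It was 0.0837 to 0.113 FPKM for a transcript of 1 kb. Loci, lengths and sequences came from RefSeq TAIR10.1, whose assembly was joined to the tables by locus identifier (32538 of 32884 rows matched). Runs of 36, 50 and 75 bases were searched in all annotated transcripts of the 5 chromosomes, and coding sequences were aligned with Biopython 1.88.

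The members and lists were chosen with earlier results of these data known. Named were all members, HDA15, the genes of each list past the threshold or otherwise its 2 with the smallest p, and for each tested member the most correlated gene. SCL21, CRC, EPR1, ZOU, GA3OX1 and GA3OX2 were named after their values were seen. Alternatives covered the pseudocount, filter, scaling, variance model, a replicate block and libraries left out.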

Additional observations from a re-analysis of the deposited data

How the results depend on the processing

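None of the 10 genes passed the threshold in any of the 17 alternatives in limma, and the lowest adjusted p was 0.158, for RGL1. Of 167 alternative fold changes of these genes, 153 kept their sign. All those of GAI, RGL2, RGL3, RGL1 and SNE did, with ranges of 0.29 to 0.64, 0.35 to 0.49, 0.16 to 0.52, 0.42 to 1.72 and -0.18 to -0.018. The other 14 changed sign, and the cause was not tested. These counts do not measure robustness, since many of the signs could not turn. The filter, the variance model and the replicate block leave the fold change itself as it was. For GAI, RGL2 and RGL1, whose groups do not overlap in FPKM, leaving out libraries cannot turn the sign either. Without the 2 libraries numbered 1 the log2 fold change was -0.37 for GID1A, 0.020 for GID1B, -0.068 for GID1C, -0.11 for SLY1 and -0.019 for RGA. Without wild type replicate 1 it was -0.09 for GID1A, 0.058 for GID1B, -0.016 for GID1C and -0.13 for SLY1. It was -0.20 for GID1A without hda15-1 replicate 1 and -0.21 for SLY1 without hda15-1 replicate 3. Leaving out 1 library gave ranges of -0.20 to 0.23 for GID1A, -0.30 to 0.058 for GID1B, -0.016 to 0.22 for GID1C, -0.21 to 0.36 for SLY1 and 0.034 to 0.34 for RGA. With libraries scaled to the same sum it was -0.017 for GID1A and -0.011 for SLY1, and after quantile normalization -0.021 for GID1A.

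Over all genes, 30 were higher and 3 lower in hda15-1. The number higher was 13 with a mean of at least 5 FPKM, 18 at the same sum and 73 without the 2 libraries numbered 1, where 12 were lower. Leaving out 1 library gave 8 to 31 higher and 3 to 5 lower. With a replicate block 13 were higher. The block did not move a call of the 10 genes. The labels do not say whether libraries with the same number share anything else. Deviations from the group mean correlated at -0.08, -0.11 and -0.16 between same-numbered libraries. With 3 libraries per group those deviations sum to 0, so these values cannot tell whether a batch was shared. With 1 library left out, the mean share of the summed DELLA level in hda15-1 was 45.6% to 54.2% for GAI and 19.1% to 25.2% for RGA. For the 3 genes below 1 FPKM a mean of at least 5 FPKM gave no value. Depth limits RGL1, SNE and GID1B most, which rest on few reads.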
